A study of Mus musculus with 9 samples.

Results

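Complex I of the respiratory chain (NADH:ubiquinone oxidoreductase) was followed at the RNA level in sorted liver macrophages labelled as Kupffer cells. Kupffer cells are the resident macrophages of the liver. The genes followed were the 45 whose symbol starts with Nduf among the 23413 rows of a raw count table. In all, 9 libraries had been made, each labelled as 1 mouse: 2 from mice fed a normal chow (NC), 3 from mice fed a high-fat diet (HFD) and given vehicle, and 4 from HFD-fed mice given diphenyleneiodonium (DPI), an inhibitor of flavin enzymes that is also known to block complex I. The mice were C57BL/6 males, 5 weeks old when the diets began. Feeding lasted 8 weeks, and vehicle (polyethylene glycol) or DPI at 2 mg/kg was injected intraperitoneally every 5 days from week 3, 6 doses in all, so that every HFD library came from an injected mouse. The treatment field of the labels instead describes purified cells kept with DMSO or with 500 nM DPI for 24 h. Cells had been sorted from digested livers as F4/80+CD11b+Gr1low, polyadenylated RNA was sequenced, and the labels name no batch.

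Complex I takes electrons from NADH at a flavin, passes them along iron-sulfur clusters to ubiquinone and pumps protons across the inner mitochondrial membrane. It is built from modules: the N-module oxidises NADH, the Q-module reduces ubiquinone, and the proximal and distal membrane arms hold the proton channels. Core subunits carry the cofactors and channels, accessory subunits surround them, and assembly factors put the modules together without staying in the finished enzyme. Macrophages are known to change their use of the respiratory chain with activation, and complex I is a known source of reactive oxygen species in them. Of the 45 genes, 10 coded for N-module subunits, 5 for the Q-module, 10 for the proximal and 11 for the distal membrane arm, 7 were the assembly factors Ndufaf1 to Ndufaf7, and 2 were Ndufa4 and Ndufa4l2, which keep the Nduf name although Ndufa4 is now placed with complex IV. The 36 subunit genes comprised 7 core and 29 accessory ones, and the core subunits made in the mitochondrion were not analysed here. Ndufa4l2 had 0 counts in each of the 9 libraries, which at 3 counts per library allows up to 0.184 CPM in the deepest and 1.02 CPM in the shallowest library. The other 44 passed the filter on low counts, of 11393 genes tested, so counts of genes called are over those 44.

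Promoters of the 4 genes that came closest to a difference between HFD vehicle and NC are shown first, and the levels of these genes are described below. They were taken from RefSeq (mouse GRCm38.p6), run from 250 bases before to 50 bases after the gene start on the gene's own strand, and are written 5′ to 3′. Capitals mark matches to GCGCNTGCG, a core motif of NRF1, a transcription factor known for nuclear genes of the respiratory chain. The stretches lie at chr2:36049289-36049588 (minus strand, Ndufa8), chr17:56717512-56717811 (plus strand, Ndufa11), chr7:122101799-122102098 (minus strand, Ndufab1) and chr1:58586147-58586446 (plus strand, Ndufb3).
Ndufa8 promoter: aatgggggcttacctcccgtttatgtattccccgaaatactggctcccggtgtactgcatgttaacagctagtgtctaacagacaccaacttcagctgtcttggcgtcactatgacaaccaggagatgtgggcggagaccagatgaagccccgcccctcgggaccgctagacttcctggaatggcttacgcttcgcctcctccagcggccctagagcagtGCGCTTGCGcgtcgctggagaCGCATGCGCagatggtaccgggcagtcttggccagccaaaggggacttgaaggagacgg
Ndufa11 promoter: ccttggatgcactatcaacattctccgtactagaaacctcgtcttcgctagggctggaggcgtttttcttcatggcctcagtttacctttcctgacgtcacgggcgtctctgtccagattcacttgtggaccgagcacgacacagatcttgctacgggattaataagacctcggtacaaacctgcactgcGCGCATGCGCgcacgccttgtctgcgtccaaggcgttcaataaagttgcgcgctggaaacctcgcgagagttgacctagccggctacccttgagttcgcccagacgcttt
Ndufab1 promoter: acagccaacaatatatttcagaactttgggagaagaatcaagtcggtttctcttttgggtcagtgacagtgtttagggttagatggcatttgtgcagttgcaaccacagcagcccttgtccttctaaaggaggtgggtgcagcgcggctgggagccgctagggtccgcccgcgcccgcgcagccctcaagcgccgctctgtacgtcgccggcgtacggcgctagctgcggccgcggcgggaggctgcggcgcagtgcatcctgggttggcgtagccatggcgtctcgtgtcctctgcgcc
Ndufb3 promoter: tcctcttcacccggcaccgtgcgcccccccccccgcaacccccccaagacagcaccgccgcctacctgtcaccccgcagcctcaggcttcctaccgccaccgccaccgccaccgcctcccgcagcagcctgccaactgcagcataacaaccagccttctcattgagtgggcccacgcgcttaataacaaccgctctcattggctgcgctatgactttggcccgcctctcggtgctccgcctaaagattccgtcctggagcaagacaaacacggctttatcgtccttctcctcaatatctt

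Ndufa8 held 2 separate matches, Ndufa11 held 1 on each strand that overlap each other because the motif is nearly palindromic, and Ndufab1 and Ndufb3 held none. Of the 45 genes, 39 matched a RefSeq promoter (Ndufaf6, Ndufs1, Ndufa4l2, Ndufb9 and Ndufa2 were among those that did not), and both strands were searched. GCGCNTGCG was found in 11 of the 39 (28.2%) and in 6.31% of all 32851 promoters. Here and for the motifs below, a gene counted once if any of its promoters matched. The share of all promoters instead counts each promoter singly, so the 2 percentages are in unlike units. AAGATGGCG (YY1) was found in 5 (12.8%), namely Ndufa9, Ndufc1, Ndufs4, Ndufs6 and Ndufs7, beside 1.4% of all promoters. CCGGAAGT (GABP and other ETS factors) was in 1 promoter, that of Ndufs3 (2.56% beside 3.89%), and TNAAGGTCA (ERR) was in 1, that of Ndufb4 (2.56% beside 1.28%). Genes with a GCGCNTGCG match had a median log2 fold change of 0.03 between HFD vehicle and NC and of 0.15 between DPI and vehicle, and those without one had -0.05 and 0.09. These matches are letters in a window, not measured sites.

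Library totals lay between 3534325 and 15585775 counts (median 4918629), of which the ribosomal RNA precursor Rn45s took 27% to 44.5%. Levels are given as CPM, the count relative to the library total after TMM scaling. The 7 macrophage markers summed to 1060 to 1800 CPM, whereas 7 Kupffer cell markers summed to 5.65 to 97.7 CPM, with Marco and Folr2 at 0 in both NC libraries and Vsig4 and Marco at 0 in the vehicle libraries. The label "kupffer" therefore rests on the sort, and the markers that set Kupffer cells apart from other macrophages were at or near 0 in some libraries. Markers of other cells also moved: 9 hepatocyte markers summed to 156 to 309 CPM in NC, 14.1 to 72.4 in vehicle and 31.8 to 92.0 in DPI libraries, with Tat at 0 throughout and Cyp3a11 at 0 in the HFD libraries, 6 sinusoidal endothelial markers to 117 to 182, 9.43 to 12.9 and 4.27 to 139 CPM, and 6 neutrophil markers to 873 to 2750, 2170 to 3400 and 569 to 4830 CPM. In the same order of groups, 5 B cell markers summed to 14.9 to 69.1, 93.4 to 179 and 15.6 to 405 CPM, 7 T and NK cell markers to 60.5 to 258, 147 to 299 and 185 to 333 CPM, and 6 eosinophil markers to 68.2 to 96.3, 52.8 to 66.1 and 30.1 to 176 CPM, with Epx and Ear6 at 0 in the NC and vehicle libraries. Their part in the results below was not tested. In bulk libraries such as these, fewer cells of a type and less RNA per cell cannot be told apart. The 2 NC libraries differed most from each other (Spearman's rho across genes 0.74, beside 0.838 to 0.887 for pairs within the other groups), and counts of genes called against NC are therefore also given without each of them.

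Taken as a sum of TMM-scaled CPM, RNA of the Nduf genes overlapped between the 3 groups. The sum was 2049 and 2326 CPM in the NC libraries. It was 2090, 2091 and 2154 CPM in the vehicle libraries. It was 2517, 2565, 2264 and 1845 CPM in the DPI libraries. On the CPM scale the groups overlapped, with means of 2188 ± 196 (SD, n = 2), 2112 ± 36.7 (SD, n = 3) and 2298 ± 329 CPM (SD, n = 4), and the widest spread was among the DPI libraries. The overlap depended on the scaling. As a share of the counts other than Rn45s, without TMM scaling, the Nduf genes took 0.368% and 0.376% in NC, 0.327%, 0.286% and 0.318% in vehicle, and 0.364%, 0.372%, 0.325% and 0.28% in DPI libraries. On that scale both NC libraries lay above the 3 vehicle libraries. DPI 1 and DPI 2, with the highest sums, had neutrophil marker sums of 569 and 611 CPM and macrophage marker sums of 1620 and 1800 CPM, and DPI 4, with the lowest, had 4830 and 1060 CPM, and the part of these markers in the spread was not tested. The sum of the 36 complex I subunits relative to that of 39 nuclear genes of complexes II to V was 0.343 and 0.349 in NC, 0.348, 0.321 and 0.335 in vehicle, and 0.344, 0.343, 0.337 and 0.353 in DPI libraries. This ratio overlapped between the groups, and it was close in DPI 2 and DPI 4, whose sums over the other complexes were 6730 and 4627 CPM. The 7 core subunits took 17.9% and 19.2% of the subunit counts in NC, 18.3%, 23.1% and 20.7% in vehicle, and 23.5%, 24.1%, 20.6% and 20.9% in DPI libraries. In each DPI library this share was above both NC libraries, and it overlapped with the vehicle libraries.

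**Figure D1:**
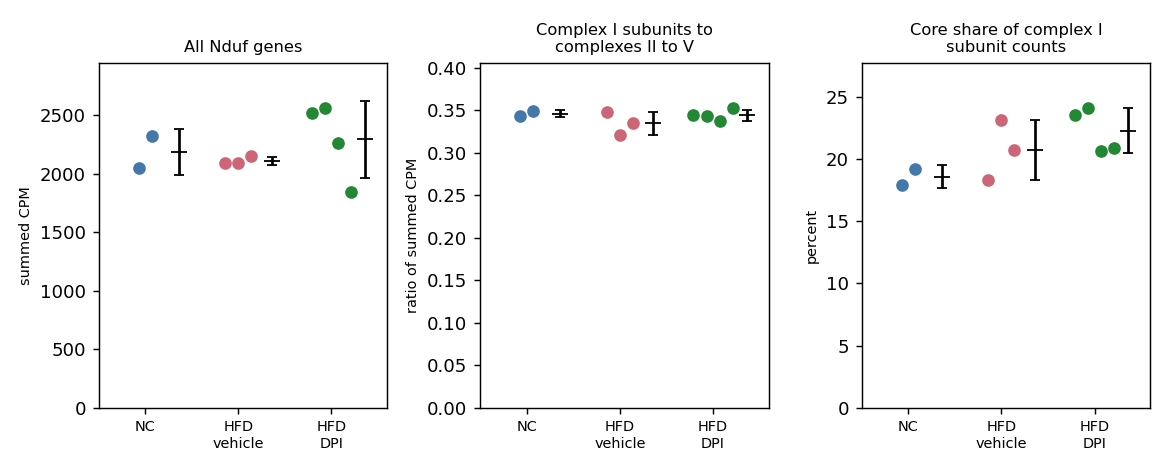
Each point is 1 library; the black mark is the group mean and its bar the SD. Left, summed level of the 45 Nduf genes in CPM; middle, summed CPM of 36 complex I subunits divided by that of 39 genes of complexes II to V; right, percent of subunit counts taken by the 7 core subunits. The ratio lies between 0.321 and 0.353 in all 9 libraries, while the sums of the DPI libraries range from 1845 to 2565 CPM.

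Levels of different genes were compared per kilobase of the principal transcript (GENCODE M21), as CPM per kilobase. The N-module subunit Ndufa6, a member of the LYR family that binds the mitochondrial acyl carrier protein, was highest in each group, at 301 ± 36.3 (SD, n = 2) in NC, 250 ± 32.6 (SD, n = 3) in vehicle and 277 ± 27.6 CPM per kilobase (SD, n = 4) in DPI libraries. Next in NC came Ndufa4 at 215 ± 46.2 and the membrane-arm subunit Ndufa3 at 182 ± 3.6 CPM per kilobase (SD, n = 2), which did not differ from each other beyond their spread. Among the subunits Ndufs1, the largest core subunit and a carrier of several iron-sulfur clusters, was lowest in each group, at 6.17 ± 3.21, 4.59 ± 2.03 and 7.27 ± 2.88 CPM per kilobase in NC, vehicle and DPI libraries. The other subunits lay between 14.5 and 182 CPM per kilobase in group means. Of the 7 assembly factors, 6 were lower still than most subunits, with group means between 1.03 (Ndufaf4 in NC) and 12.5 CPM per kilobase (Ndufaf3 in DPI), whereas Ndufaf7, a methyltransferase that acts in complex I assembly, stood at 38.2, 50.7 and 43.7 CPM per kilobase. The order depended on the length used: divided by the union of all exons, Ndufa6 had 98.6, 82.0 and 90.7 CPM per kilobase, and Ndufa2 (NC and DPI) or Ndufa1 (vehicle) was highest.

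**Figure D2:**
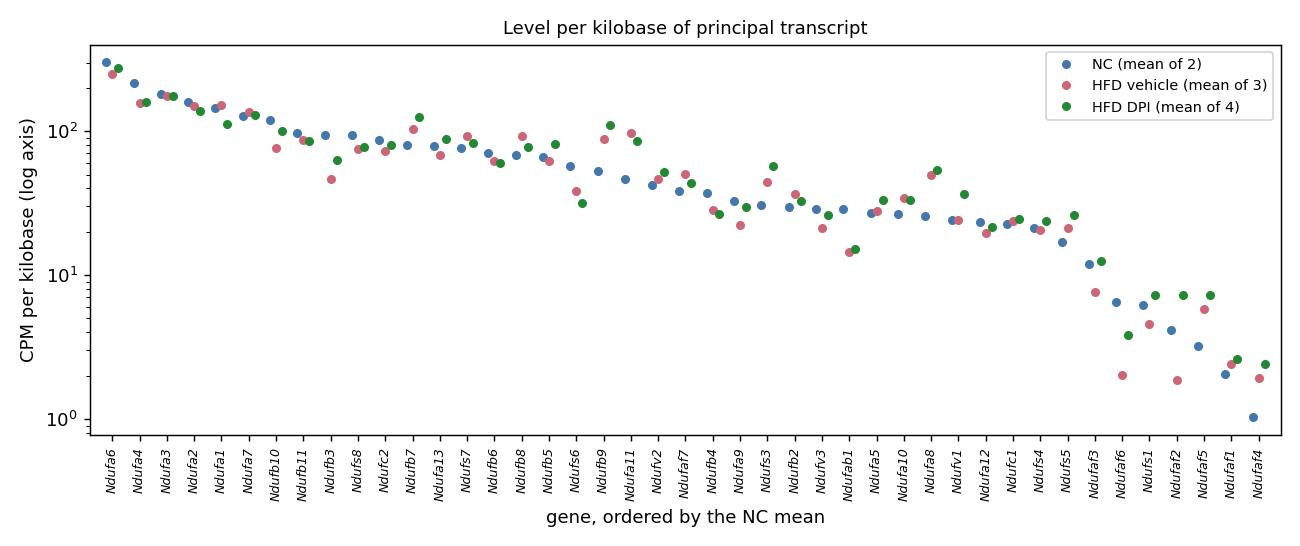
Mean level of 43 of the 44 tested Nduf genes in CPM per kilobase of the principal transcript (log axis) in NC, HFD vehicle and HFD DPI libraries, ordered by the NC mean. Ndufa6 is at the top in each group, most subunits lie above 14.5, and 6 assembly factors and Ndufs1 form the low end.

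Within groups the Nduf genes varied less than genes at large. The median of their within-group SD of log2 CPM was 0.37, beside 0.76 over all genes tested and 0.29 over the genes of complexes II to V. These sets also differed in level, with median log2 CPM of 5.54, 3.49 and 6.77. The most even member was Ndufa13 (0.10), an accessory subunit also known as GRIM-19, and the least even were assembly factors (median 1.52, up to 2.02 for Ndufaf6). Between NC 1 and NC 2, 16 of the 44 genes (36.4%) differed over 2-fold, beside 48.2% of all genes tested, whereas 2 to 5 of the 44 did so in any pair of libraries within the vehicle or the DPI group, beside 28.3% to 37.1% of all genes. The widest gaps were those of assembly factors, while subunits such as Ndufv1 and Ndufb9 also differed over 2-fold. Ndufaf1, Ndufaf2, Ndufaf4 and Ndufaf5 had 0 counts in NC 1 and 32, 30, 40 and 40 counts in NC 2. Ndufaf3 had 26 and 164 counts, and Ndufaf6 went the other way, with 77 counts in NC 1 and 0 in NC 2. NC 1 also had 0 counts for 12.5% of all genes tested, beside 7.78% in NC 2 and 2.4% to 6.53% in the other libraries. The total of NC 1 was 4666522 and that of NC 2 was 4801564, and the cause of these zeros was not tested.

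**Figure D3:**
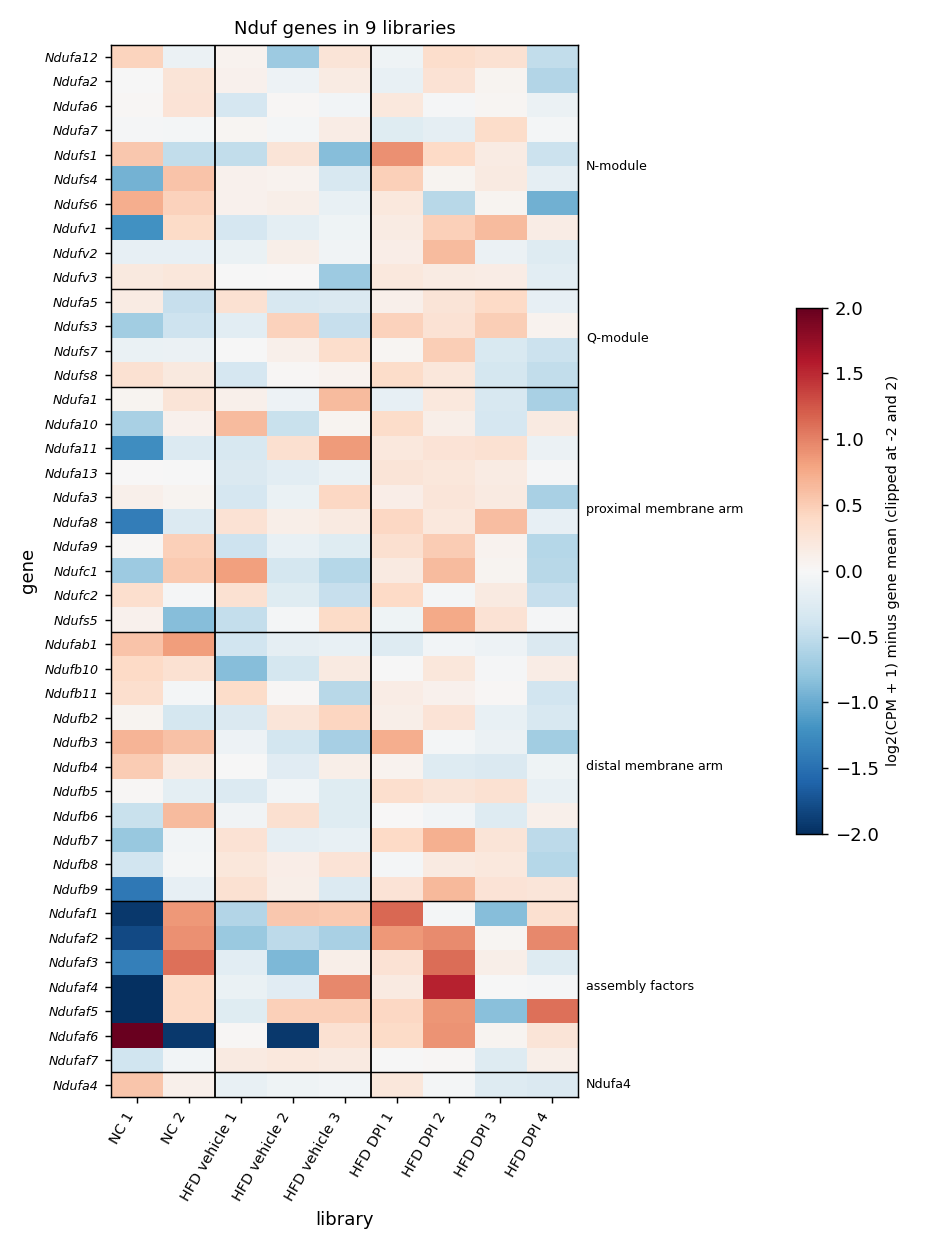
Each row is 1 of 43 tested Nduf genes and each column a library; colour gives log2(CPM + 1) minus the gene's mean over the 9 libraries, clipped at -2 and 2, and lines part the groups and the modules. Most subunit rows are pale. The strongest colours are those of assembly factors in NC 1, blue for Ndufaf1, Ndufaf2, Ndufaf4 and Ndufaf5 and red for Ndufaf6. Ndufaf6 is also dark blue in NC 2 and HFD vehicle 2, where it had 0 counts. In NC 1, Ndufaf3 and subunits such as Ndufb9 (21.5 CPM) and Ndufa8 (13.7 CPM) are also blue, though less dark.

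Sorted macrophages from HFD-fed mice given vehicle were compared with those from NC-fed mice to ask whether HFD with vehicle went with a change in complex I RNA. The paper's methods describe injections only for HFD-fed mice, so diet and injection cannot be told apart in this comparison. No Nduf gene passed an adjusted p under 0.05 in the quasi-likelihood test of edgeR, adjusted by the Benjamini-Hochberg method, which called 0.0614% of all genes tested higher and 0% lower, or in DESeq2, which called 397 genes (3.5% of those it gave an adjusted p). At an unadjusted p under 0.05, 2 of the 44 were higher (Ndufa8, Ndufa11, 7.76% of all genes) and 2 were lower (Ndufab1, Ndufb3, 5.22% of all genes). By the threshold used in the study, an unadjusted p under 0.05 with at least a 2-fold change, 1 was higher (Ndufa11, 7.03% of all genes) and 1 was lower (Ndufb3, 4.63% of all genes). Each was 2.27% of the Nduf genes, a count of 1 that was not tested against the background. The median log2 fold change of the 44 was -0.05, with 21 positive and 23 negative, beside 0.03 over all genes tested. Module medians were -0.18 for the N-module, 0.29 for the Q-module, 0.08 for the proximal arm, -0.17 for the distal arm and 0.24 for the assembly factors, and that of the complexes II to V was -0.07. For 11 of the 44 (25%) the 95% interval of the difference lay within 2-fold either way, beside 5.84% of all genes, so that the interval of the other 33 reached 2-fold in at least 1 direction.

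The 4 genes are described with all their values. Ndufab1 (ENSMUSG00000030869, chr7:122085403-122101886) encodes the mitochondrial acyl carrier protein, a distal-arm subunit that also serves mitochondrial fatty acid synthesis. It was at 36.8 and 44.4 CPM in NC, at 18.4, 21.4 and 21.8 CPM in vehicle, and at 20.3, 23.4, 22.6 and 19.8 CPM in DPI libraries. Both NC libraries lay above all 7 HFD libraries. The log2 fold change against NC was -0.98 ± 0.40 (SE) in vehicle (edgeR adjusted p = 0.338). An exon of Ndufab1 overlaps Gm44986 on the other strand, and whether the counting used strand is not given in the sources used here.

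Ndufb3 (ENSMUSG00000026032, chr1:58586384-58595964), an accessory subunit of the distal arm, was at 74.5 and 69.3 CPM in NC and at 42.6, 35.5 and 28.5 CPM in vehicle libraries. In the DPI libraries it was at 76.7, 44.5, 42.1 and 27.9 CPM. The vehicle libraries lay below both NC libraries, while DPI 1 lay above them and the other 3 DPI libraries did not. The log2 fold change in vehicle against NC was -1.01 ± 0.42 (SE, edgeR adjusted p = 0.342). Ndufa11 (ENSMUSG00000002379, chr17:56717767-56722141), a membrane subunit of the proximal arm, was at 16.8 and 34.0 CPM in NC, at 32.9, 51.7 and 75.1 CPM in vehicle and at 47.7, 50.3, 51.0 and 38.0 CPM in DPI libraries. Vehicle 1 overlapped with NC 2, and the 4 DPI libraries lay above both NC libraries. Its log2 fold change in vehicle was 1.07 ± 0.45 (SE, edgeR adjusted p = 0.347), and an exon overlaps Vmac on the other strand. Ndufa8 (ENSMUSG00000026895, chr2:36036326-36049406), an accessory subunit on the intermembrane-space side of the proximal arm, was at 13.7 and 31.0 CPM in NC, at 45.9, 40.6 and 42.4 CPM in vehicle and at 50.5, 43.5, 58.1 and 33.4 CPM in DPI libraries. All 7 HFD libraries lay above NC. Its log2 fold change in vehicle was 0.94 ± 0.43 (SE, edgeR adjusted p = 0.380).

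**Figure D4:**
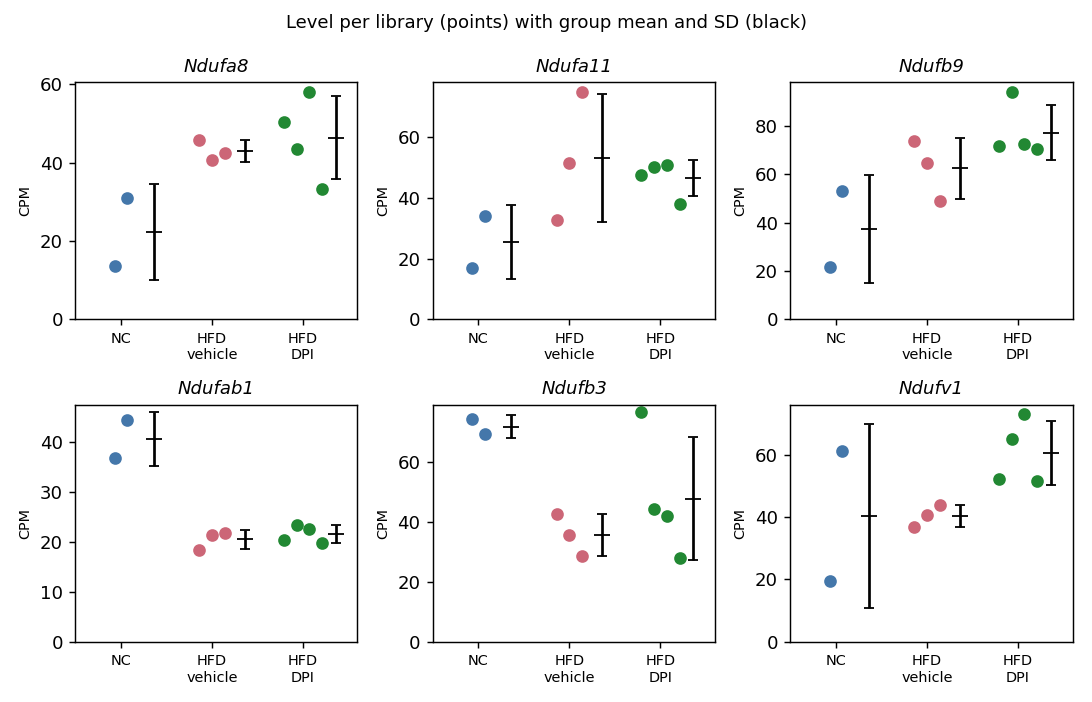
Level in CPM of 6 Nduf genes, 1 point per library, with the group mean and SD in black; each vertical axis starts at 0. Ndufab1 is higher in both NC libraries than in all 7 HFD libraries, Ndufa8 is lower in both, and in Ndufb9 and Ndufv1 the 2 NC libraries lie far apart.

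Counting genes whose libraries did not overlap, 5 of the 44 were higher in vehicle than in NC (Ndufa8, Ndufaf7, Ndufb8, Ndufs7 and Ndufv2, 15% of all genes tested) and 10 were lower (Ndufa13, Ndufa4, Ndufa9, Ndufab1, Ndufb10, Ndufb3, Ndufb4, Ndufs6, Ndufs8 and Ndufv3, 12.5% of all genes tested). These were 11.4% and 22.7% of the Nduf genes. Of the 10 lower genes, 4 belonged to the distal arm, which made up 11 of the 44 genes. Ndufb8, of the same arm, was among the 5 higher genes. Ndufa4, at 151 and 111 CPM in NC and 92.8, 96.7 and 98.9 CPM in vehicle, had a log2 fold change of -0.45 ± 0.30 (SE, edgeR adjusted p = 0.559). Among the core subunits, log2 fold changes were 0.01 for Ndufv1, which binds the flavin, 0.14 for Ndufv2 and -0.42 for Ndufs1 in the N-module, and of 0.54 for Ndufs3, 0.29 for Ndufs7 and -0.32 for Ndufs8 in the Q-module, with SEs of 0.34 to 0.61 and edgeR adjusted p of at least 0.572. The calls at the study's threshold changed when single libraries were left out. Without NC 2, 9 genes were higher (among them Ndufa8, Ndufa11, Ndufb9, Ndufv1 and 4 assembly factors) and 0 lower, while over all genes 1793 (14.5%) were higher and 841 (6.82%) lower. The log2 fold change of Ndufa8 was 0.48 without NC 1 and 1.68 without NC 2, and that of Ndufa11 was 0.65 and 1.69. At the study's threshold, without NC 1, 1 was higher (Ndufaf6, beside 8.13% of all genes) and 2 were lower (Ndufab1 and Ndufaf3, beside 4.31%). Without vehicle 3 there were 0 in either direction (5.97% of all genes higher and 3.07% lower), and without DPI 2, 0 were lower (3.92% of all genes). The log2 fold change of Ndufb3 was then -0.83 and -0.97, short of 2-fold, and that of Ndufa11 was 0.79 without vehicle 3. Scaling by library size alone put the median of the Nduf genes at -0.34 and that of all genes at -0.26, with 0 higher and 2 lower (Ndufab1, Ndufb3).

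DPI-treated and vehicle-treated HFD-fed mice were compared to ask whether the drug went with a change in RNA of the complex it is known to block. No Nduf gene reached an adjusted or an unadjusted p under 0.05 in edgeR's quasi-likelihood test (0 of 44), and none passed an adjusted p or the study's threshold in DESeq2, where 2 of all genes passed the adjusted p. Over all genes tested 0% passed the adjusted p in edgeR, 1.96% were higher and 2.17% lower at an unadjusted p under 0.05, and 1.5% and 1.34% passed the study's threshold. The median log2 fold change of the 44 was 0.15, with 30 positive (68.2%) and 14 negative, beside a median of 0.04 and 53.1% positive over all genes tested. With libraries left out in turn it ran from 0.08 (without DPI 2, 26 positive) to 0.25 (without DPI 4, 33 positive). The module medians were 0.15 for the N-module, 0.25 for the Q-module, 0.07 for each membrane arm and 0.32 for the assembly factors, and that of the complexes II to V was 0.06. The 95% interval lay within 2-fold either way for 22 of the 44 (50%), beside 14.6% of all genes.

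**Figure D5:**
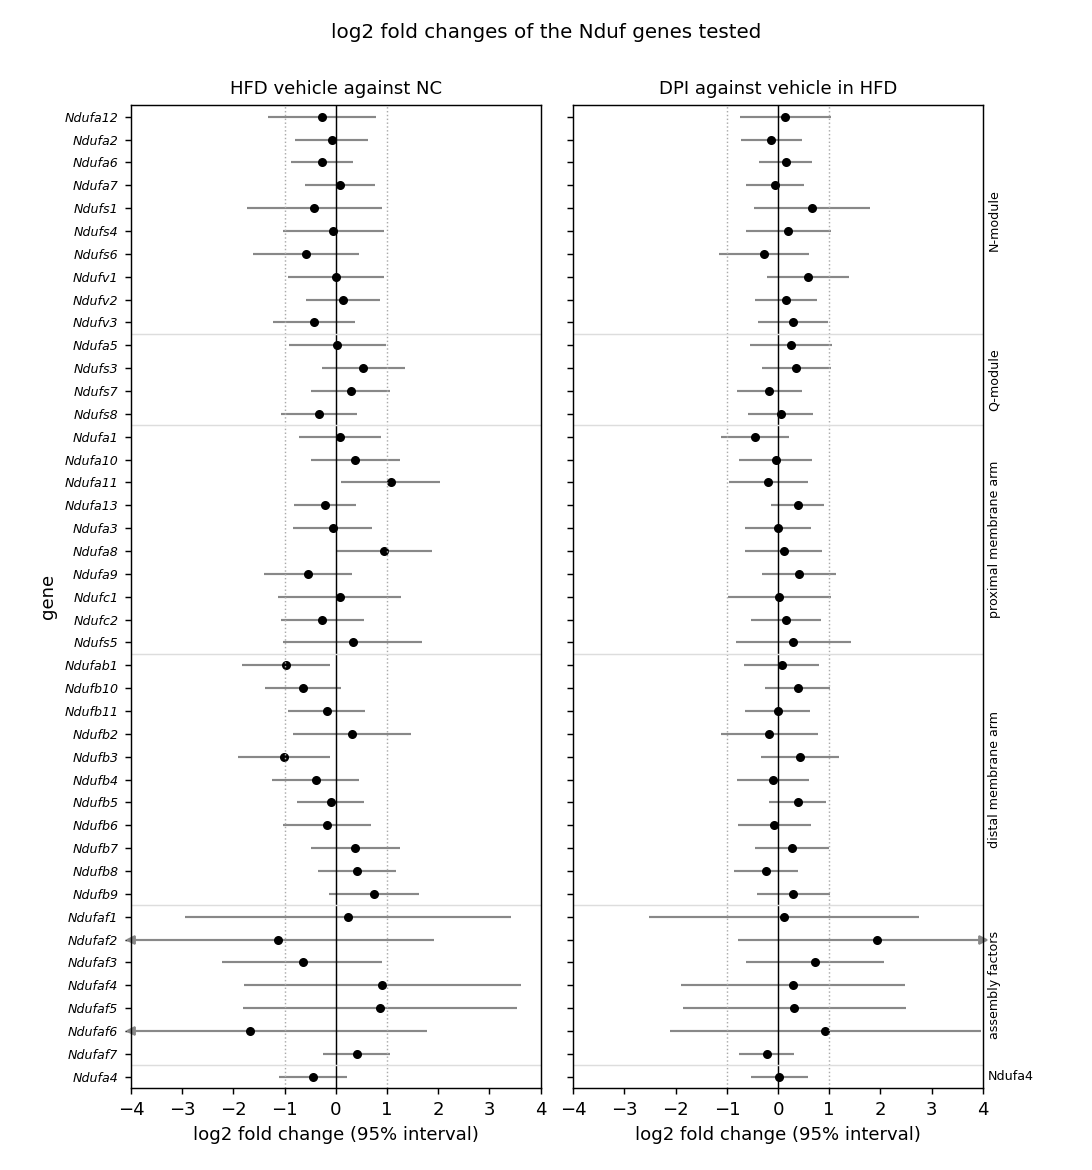
Log2 fold changes (points) with 95% intervals (lines; arrows run past the axis) of 43 of the 44 tested Nduf genes by module, left HFD vehicle against NC and right DPI against vehicle in HFD; both share the vehicle libraries, and dotted lines mark 2-fold. On the left the intervals of Ndufab1, Ndufb3, Ndufa8 and Ndufa11 leave out 0; on the right every interval includes 0, and those of the assembly factors other than Ndufaf7 are the widest.

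The 7 core subunits hold the flavin, the iron-sulfur clusters and part of the ubiquinone site, and 6 of them had positive log2 fold changes with DPI, none past a threshold. Ndufv1, the flavin-binding subunit that accepts electrons from NADH, was at 36.8, 40.6 and 43.9 CPM in vehicle and at 52.3, 64.9, 72.9 and 51.7 CPM in DPI libraries. The 4 DPI libraries lay above the 3 vehicle libraries, at a log2 fold change of 0.58 ± 0.37 (SE, edgeR adjusted p = 0.999), while the NC libraries, at 19.5 and 61.1 CPM, lay below and above the vehicle libraries, and 2 DPI libraries lay above both NC libraries. Log2 fold changes of other core subunits were 0.66 ± 0.52 for Ndufs1, 0.36 ± 0.31 for Ndufs3, 0.16 ± 0.28 for Ndufv2, 0.05 ± 0.29 for Ndufs8 and -0.17 ± 0.29 for Ndufs7 (SE, edgeR adjusted p = 0.999 for each). Single libraries moved some of these: that of Ndufs1 was 0.38 without DPI 1 and 1.07 without vehicle 2, and that of Ndufs3 was 0.17 without vehicle 3 and 0.68 without vehicle 2. The median was 0.36 over the core and 0.11 over the 29 accessory subunits.

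Groups did not overlap between DPI and vehicle for 3 genes that were higher (Ndufa13, Ndufaf2 and Ndufv1, 3.38% of all genes tested) and 1 that was lower (Ndufaf7, 2.48% of all genes tested). Ndufa13 and Ndufaf2 were picked out after their values were seen. Ndufa13 was at 81.5, 85.6 and 90.2 CPM in vehicle and at 119, 116, 112 and 98.0 CPM in DPI libraries, beside 100 and 98.6 CPM in NC. Its log2 fold change of 0.38 ± 0.24 (SE) had the smallest p of the Nduf genes in this comparison (edgeR adjusted p = 0.999). Ndufaf2, a late-acting assembly factor related to Ndufa12, had 5, 8 and 5 counts in vehicle and 88, 17, 14 and 57 counts in DPI libraries, at 1.11, 1.45 and 1.24 CPM and 5.39, 5.77, 2.6 and 5.82 CPM. Its log2 fold change was 1.93 ± 1.27 (SE, edgeR adjusted p = 0.999), the only one of the Nduf genes past 2-fold here, and it passed the study's threshold in a fit of these groups alone and without NC 1. Ndufaf7 was at 88.1, 90.1 and 88.0 CPM in vehicle and at 77.5, 79.1, 64.9 and 84.0 CPM in DPI libraries. For the genes described against NC, log2 fold changes with DPI were 0.07 ± 0.34 for Ndufab1, 0.43 ± 0.36 for Ndufb3, -0.19 ± 0.36 for Ndufa11 and 0.11 ± 0.35 for Ndufa8 (SE, edgeR adjusted p = 0.999 for each). That of Ndufb3 was 0.10 without DPI 1 and 0.62 without DPI 4. Ndufa4, at 121, 100, 85.5 and 84.5 CPM in DPI libraries, had a log2 fold change of 0.02, with a 95% interval from -0.53 to 0.58.

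DPI libraries were also set beside NC, sharing the DPI libraries with one and the NC libraries with the other comparison above, so these comparisons are not independent. Again no Nduf gene passed an adjusted p under 0.05 in edgeR (0.00878% of all genes were higher and 0% lower) or in DESeq2 (266 genes, 2.23% of those it gave an adjusted p). At the study's threshold 2 were higher (Ndufa8 and Ndufb9, 6.24% of all genes tested) and 0 lower (3.05% of all genes tested), and at an unadjusted p under 0.05 alone 3 were higher (with Ndufs3, 7.13%) and 1 lower (Ndufab1, 3.62%). Ndufb9, a distal-arm LYR protein that binds the acyl carrier protein, was picked out after its values were seen. It was at 21.5 and 53.2 CPM in NC, at 73.9, 64.6 and 49.1 CPM in vehicle and at 71.8, 94.1, 72.5 and 70.3 CPM in DPI libraries. All DPI libraries lay above NC, and its log2 fold change was 1.04 ± 0.39 (SE, edgeR adjusted p = 0.399). That of Ndufa8 was 1.05 ± 0.42 (SE, edgeR adjusted p = 0.411), that of Ndufs3, a core Q-module subunit, 0.90 ± 0.37 (SE, edgeR adjusted p = 0.424), and that of Ndufab1 -0.92 ± 0.37 (SE, edgeR adjusted p = 0.424). Ndufs3 has a near-identical copy, Gm12251, between which reads could be split. An exon of Ndufb9 overlaps Gm49356 on the same strand. Groups did not overlap for 4 genes that were higher (Ndufa11, Ndufa8, Ndufb9, Ndufs3, 11.7% of all genes tested) and 4 that were lower (Ndufab1, Ndufb10, Ndufb4, Ndufs6, 8.50% of all genes tested). Here too single libraries decided the count: without NC 2, 12 Nduf genes and 1812 of all genes (14.7%) were higher at the study's threshold, without NC 1 only Ndufaf6 was higher (7.13% of all genes) and Ndufab1 lower (2.48%), without DPI 2 only Ndufa8 was higher (5.74%), without DPI 3 only Ndufb9 (5.04%), and without DPI 1 Ndufs6 was lower (3.01%). The log2 fold change of Ndufb9 was 0.54 without NC 1 and 1.87 without NC 2, and that of Ndufa8 was 0.59 and 1.79.

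Genes outside the Nduf family that serve the same enzyme were read from lists. Of 11 other complex I assembly genes tested, 2 were higher and 1 lower at the study's threshold in vehicle against NC (beside 7.03% and 4.63% of all genes), with Tmem126b, Foxred1 and Tmem186 having the smallest p, and 0 differed between DPI and vehicle in edgeR. Among 11 regulators of mitochondrial biogenesis, 1 was lower in vehicle than in NC (Esrra, a nuclear receptor that binds genes of oxidative metabolism, edgeR adjusted p = 0.379, beside 4.63% of all genes at the study's threshold) and 1 lower in DPI than in vehicle (Ppargc1b, a coactivator, edgeR adjusted p = 0.999, beside 1.34% of all genes). Of the 39 genes of complexes II to V, none passed the study's threshold in either comparison, and 1, Uqcrc1 of complex III, was lower at an unadjusted p under 0.05 in vehicle against NC (edgeR adjusted p = 0.356, beside 5.22% of all genes lower). Their 95% intervals lay within 2-fold for 22 genes in vehicle against NC and for 35 in DPI against vehicle, beside 5.84% and 14.6% of all genes.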

How the data were processed

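RNA was measured in 9 mouse libraries of sorted liver macrophages. The table the authors deposited holds raw counts, whole numbers with no normalization, from reads aligned to mm10. The paper names bowtie2 and RSEM for this step, the submitters' processing notes name TopHat2 and edgeR, and whether strand was used is not given in the sources used here. Groups and replicate numbers came from the sample titles, and the paper's dosing was followed where the labels' treatment field differs. The paper's legend gives more mice per group than there are libraries.

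Tests used edgeR 4.0.16 under R 4.3.3 (filterByExpr, TMM scaling and glmQLFit over the 3 groups) and adjusted by the Benjamini-Hochberg method over 11393 genes. The biological coefficient of variation was 0.65. CPM used the TMM-scaled totals, and floors of 3 counts cover counting error only. Alternatives were DESeq2 1.42.0, other scalings and filters, the compared groups alone, a replicate block, Rn45s left out, thinning to the smallest total, a trend on GC content and length, and each library left out. Gene positions and lengths came from GENCODE M21 (45 of 45 matched). Near-identical copies were searched with blastn 2.17.0 (at least 95% identity over 50% of the transcript), and 4 genes had one (Ndufb11, Ndufs3, Ndufs5, Ndufs6). Exons of 19 overlapped another gene. The script was tested on simulated data. Summaries used Python 3.11.15 with numpy 2.4.6 and pandas 2.3.3, and figures matplotlib 3.10.9.

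The genes and lists were chosen with earlier results of these data known. Fold changes were printed for genes with an unadjusted p under 0.05 (at most 6 per comparison), the core subunits, Ndufa4, the extremes of level and those said to be picked out after their values were seen. From lists of other genes at most 3 with the smallest p were named, without fold changes. Values of 1 of the Nduf genes are not reported here, although it is included in the sums and counts. No test was run over the Nduf genes as a set.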

Additional observations from a re-analysis of the deposited data

Results flagged for a closer look

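In the group of 4 DPI libraries, the highest or lowest library was checked against the others for each of the 45 Nduf genes, and 5 had a library that stood apart by Dixon's criterion; chance alone flags about 1 in 20 such groups. For Ndufa3, a membrane-arm subunit, DPI 4 was lowest at 56.3 CPM, with the others at 97.6 to 105 CPM. For Ndufv3, an accessory subunit of the N-module, DPI 4 was also lowest at 33.6 CPM, with the others at 43.4 to 45.3 CPM. DPI 4 also had the lowest sum over the Nduf genes and the highest neutrophil marker sum (4830 CPM); the part of the latter was not tested. The assembly factor Ndufaf2 was lowest in DPI 3 at 2.6 CPM, with the others at 5.39 to 5.82 CPM. The assembly factor Ndufaf4 was highest in DPI 2 at 17.7 CPM, with the others at 5.31 to 6.31 CPM. The distal-arm subunit Ndufb9 was highest in DPI 2 at 94.1 CPM, with the others at 70.3 to 72.5 CPM. Groups of 2 and 3 libraries were not checked in this way.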

How the results depend on the processing

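Counts of Nduf genes called are those at the study's threshold unless stated. In HFD vehicle against NC, with 1 higher and 1 lower as reported, DESeq2 and RLE size factors gave 2 lower (Ndufab1, Ndufb3, beside 4.37% and 4.97% of all genes). Library size alone gave 0 higher (4.73%), 2 lower (8.19%) and a median log2 fold change of -0.34. The compared groups alone gave 0 higher (5.49%), with Ndufa11 at a log2 fold change of 1.07. Thinning to the smallest library gave 0 lower (4.74%) and so did leaving out Rn45s (4.3%), with Ndufb3 at -0.95 and -0.99. In DPI against vehicle, the compared groups alone gave 1 higher (Ndufaf2, beside 1.49%). In DPI against NC, with 2 higher and 0 lower as reported, library size alone gave 0 higher (4.79%) and 2 lower (Ndufab1, Ndufs6, beside 5.48%). With the replicate block, HFD vehicle against NC had 0 higher (5.35% of all genes) and 0 lower (2.52%), with Ndufa11 at 0.91 and Ndufb3 at -0.88. DPI against NC had 4 higher (among them Ndufa8, Ndufb9 and Ndufs3, beside 4.71%). The block changed no other of these counts. After group means were subtracted, same-numbered libraries correlated at -0.0222 to 0.0841. With groups of 2 to 4 libraries, these values cannot show whether same-numbered libraries were paired.

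Over the libraries left out in turn, HFD vehicle against NC had 0 to 9 higher (5.97% to 14.5% of all genes), 0 to 2 lower (3.07% to 6.82%) and 0 to 2 at an adjusted p under 0.05. DPI against vehicle had 0 to 1 higher (0.913% to 2.23%). DPI against NC had 1 to 12 higher (5.04% to 14.7%), 0 to 1 lower (2.36% to 6.6%) and 0 to 3 at an adjusted p under 0.05. The adjusted calls appeared only without NC 2, which leaves NC 1 as the lone NC library, assumed to vary like the other groups. They were Ndufaf4 and Ndufaf5 in vehicle and Ndufaf4, Ndufaf5 and Ndufb9 in DPI, where over all genes 568 (4.61%) and 572 (4.64%) passed. Ndufaf4 and Ndufaf5 were at 0 counts in NC 1.

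Some log2 fold changes changed sign. With all 9 libraries, the extremes of level per kilobase in NC among genes tested were as follows. Ndufaf4, the lowest, was at 0.90 ± 1.25 in HFD vehicle against NC, 0.29 ± 1.02 in DPI against vehicle and 1.19 ± 1.22 in DPI against NC (SE). Ndufa6, the highest, was at -0.27 ± 0.28, 0.15 ± 0.24 and -0.12 ± 0.27 (SE) in the same order. For HFD vehicle against NC, Ndufv1 was -0.03 with DESeq2 and with RLE size factors and -0.27 with library size alone, which also gave -0.02 for Ndufs7 and -0.15 for Ndufv2. With libraries left out, its range was -0.59 to 1.08 for Ndufv1, -2.12 to 6.12 for Ndufaf2, -0.09 to 8.56 for Ndufaf4 and -0.84 to 0.26 for Ndufs1; fitted values against a library at 0 counts are no bounds. For DPI against vehicle, Ndufa4 was -0.0032 with the compared groups alone. With libraries left out, the ranges were -0.09 to 0.09 for Ndufa4, -0.11 to 0.18 for Ndufs8, -0.31 (without DPI 2) to 0.85 (without vehicle 3) for Ndufaf4, -0.06 to 0.27 for Ndufv2, -0.02 to 0.24 for Ndufa8, -0.01 to 0.10 for Ndufab1 and -0.44 to 0.13 for Ndufa11. For DPI against NC, library size alone gave -0.06 for Ndufa13 and -0.13 for Ndufs7. With libraries left out, the ranges were -0.18 to 0.91 for Ndufs1, -0.05 to 0.24 for Ndufs7, -0.18 to 8.05 for Ndufaf2, -0.01 to 1.66 for Ndufv1 and -0.23 to 0.04 for Ndufa6. The cause of these changes was not tested. In all, 1017 of the recomputed values kept their direction and side of the threshold or moved within the spread, 33 moved, 3 newly passed an adjusted p under 0.05 and 29 changed sign. With 2 NC libraries and 9 in all, the 95% interval reached 2-fold for 33 of the 44 Nduf genes in HFD vehicle against NC.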
